A study of Rattus norvegicus with 6 samples.

Results

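The insulin-like growth factor (IGF) system was described here through 10 genes: the ligands Igf1 and Igf2, the receptors Igf1r and Igf2r, and the binding proteins Igfbp2, Igfbp3, Igfbp4, Igfbp5, Igfbp6 and Igfbp7. A member was any probe set, a group of short probes that reports 1 transcript, whose platform annotation names 1 of these genes and no other gene. That gave 10 probe sets, 1 for each gene, of 28879 in the table, and all 10 passed the filter on dim probe sets that left 21659 for testing. The samples were thoracic aortae from rats aged 24 weeks, of the hypertensive strain SHR or of WKY, its control strain with normal blood pressure. No allele or transgene is named for either strain. The rats had no treatment beyond a measurement of tail blood pressure, and fat and connective tissue had been removed from the vessels, per the labels. Each strain had 3 Affymetrix Rat Gene 2.0 ST arrays, and levels are log2 values. The labels do not say that each array held a separate rat, nor whether RNA was pooled, so p-values reflect only sample-to-sample spread and that spread may be technical.

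IGF1 and IGF2 are small secreted peptides that act through the receptor tyrosine kinase IGF1R and promote growth, survival and migration of vascular smooth muscle. IGF2R has no kinase and carries IGF2 and mannose 6-phosphate-tagged enzymes to lysosomes, which removes IGF2 from the surroundings of the cell. The binding proteins hold IGFs in blood and matrix, and proteases such as PAPP-A release them. IGFBP7 binds IGFs only weakly and is counted with the family through its shared N-terminal domain.

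The vessel wall was represented on every array. The mean of 6 tested smooth muscle markers of 8 listed lay between 9.49 and 9.83 in SHR and between 9.67 and 9.91 in WKY, and all 6 were above every array median. The array medians ran from 2.29 to 2.52. WKY replicate 3 stood apart, with the highest median, the narrowest spread over probe sets (SD 2.12, against 2.22 to 2.27 on the others) and the lowest fitted array weight (0.220). SHR replicate 1 was high in neuronal markers: the mean of 6 tested Schwann cell and neuron markers of 8 listed was 5.99 there and between 2.31 and 2.89 on the other arrays. Th (5.92), Dbh (6.40), Snap25 (7.61) and Stmn2 (6.13) carried this, with at most 2.80 on any other array. The Schwann cell markers did not share it: Sox10 (3.29) lay below WKY replicate 3 (3.47), and S100b (6.57) was near WKY replicate 1 (6.05). White adipocyte markers, of which all 8 were tested, had means from 4.10 to 7.93 in SHR and from 6.16 to 7.56 in WKY. In tissue RNA, fewer cells of a type and less RNA per cell cannot be told apart.

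Of the 10 members, 0 passed at a limma adjusted p under 0.05, where 0.0693% of all tested probe sets passed. Igfbp2 came nearest (limma adjusted p = 0.0848). At an unadjusted p under 0.05 there were 4 of 10, where the share of all tested probe sets was 5.55%. They were Igfbp2, Igfbp4 and Igfbp5 on the lower side in SHR (2.54% of all tested probe sets) and Igf2r on the higher side (3.01%). The arrays of the strains did not overlap for Igfbp2 and Igfbp4, lower in SHR (5.61% of all), and for Igf2r, higher in SHR (6.48%), which is 3 of 10 members against 12.1% in either direction. The median difference of the members, SHR minus WKY, was -0.12 on the log2 scale, beside -0.01 over all tested probe sets. The genes were put together with earlier results of these data known, so nothing particular to the family is read from these counts.

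The 4 genes with an unadjusted p under 0.05 are shown by the 250 bases just upstream of their annotated start, the region where transcription factors and polymerase assemble. The windows are from RefSeq on assembly GRCr8, run 5′ to 3′ on the strand of the gene and end at the base before the start. Capitals mark matches to 3 short motifs: the GC box GGGCGG (bound by SP1-type factors), the TATA box TATAAA and the E-box CACGTG. The CCAAT box, written CCAAT, was searched as well and had no match in any of them. Both strands were searched, and no match overlapped another motif.
Igfbp2, chr9:81864561-81864810, plus strand: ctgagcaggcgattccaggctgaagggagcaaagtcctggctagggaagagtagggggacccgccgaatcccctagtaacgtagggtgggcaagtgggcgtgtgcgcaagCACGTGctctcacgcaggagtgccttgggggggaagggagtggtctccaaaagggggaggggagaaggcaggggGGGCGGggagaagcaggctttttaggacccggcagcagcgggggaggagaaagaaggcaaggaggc
Igfbp5, chr9:81914188-81914437, minus strand: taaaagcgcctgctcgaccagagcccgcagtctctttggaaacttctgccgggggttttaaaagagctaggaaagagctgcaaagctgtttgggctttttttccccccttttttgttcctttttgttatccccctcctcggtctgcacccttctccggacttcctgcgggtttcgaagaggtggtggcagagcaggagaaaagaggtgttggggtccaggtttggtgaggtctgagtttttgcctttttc
Igfbp4, chr10:84491221-84491470, plus strand: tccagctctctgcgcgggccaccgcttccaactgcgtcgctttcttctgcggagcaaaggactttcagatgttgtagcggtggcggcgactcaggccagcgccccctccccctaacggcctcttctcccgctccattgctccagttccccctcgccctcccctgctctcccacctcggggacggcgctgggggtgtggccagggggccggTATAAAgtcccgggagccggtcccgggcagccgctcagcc
Igf2r, chr1:50526628-50526877, plus strand: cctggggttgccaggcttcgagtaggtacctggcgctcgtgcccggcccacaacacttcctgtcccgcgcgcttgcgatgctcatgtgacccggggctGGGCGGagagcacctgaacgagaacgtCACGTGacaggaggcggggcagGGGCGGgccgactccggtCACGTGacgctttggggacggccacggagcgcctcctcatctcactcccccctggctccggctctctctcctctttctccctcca

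The windows differ in composition. The G and C share was 64.0% for Igfbp2, 51.6% for Igfbp5, 68.8% for Igfbp4 and 68.0% for Igf2r, beside a median of 51.2% over 33469 windows of the same length. Igfbp2 holds a GC box that begins 66 bases before the start and an E-box at 140 bases. Igf2r holds GC boxes at 103 and 152 bases and E-boxes at 85 and 125 bases. Igfbp4 holds a TATA box at 40 bases, and Igfbp5 holds none of the motifs. Of all windows, 30.5% hold a GC box, 12.9% a TATA box, 34.0% a CCAAT and 5.59% an E-box. None of the 4 motifs occurred in all 3 windows of the binding protein genes. Igfbp2 and Igfbp5 lie beside each other on chromosome 9, on opposite strands, with no protein-coding gene between them in the RefSeq order.

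**Figure D1:**
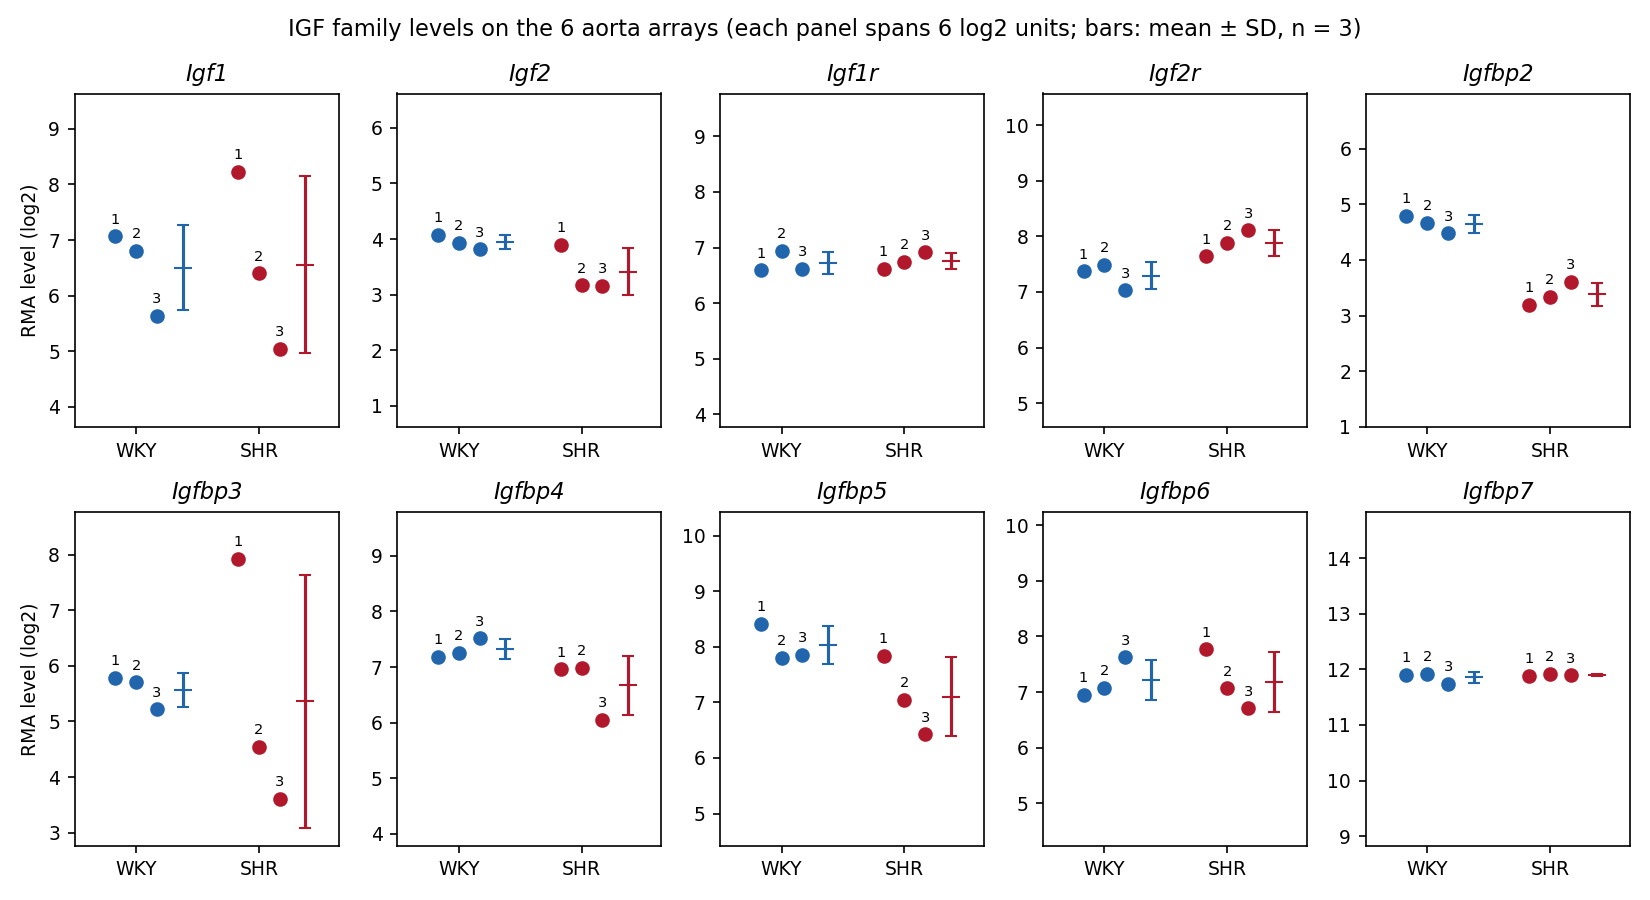
RMA levels (log2, vertical axis) of the 10 members on the 6 arrays, by strain, with replicate numbers above the points and mean ± SD (n = 3) beside them. Each panel spans the same number of log2 units around its own gene. Igfbp2 separates the strains with little spread, whereas Igf1 and Igfbp3 span 3.18 and 4.32 log2 units within SHR.

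The ligand Igf1, the main endocrine and local growth factor of the family after birth, did not differ between strains beyond its spread. In the order of replicates 1, 2 and 3, used for every gene, its level was 8.22, 6.41 and 5.05 in SHR and 7.07, 6.81 and 5.64 in WKY. Both the highest and the lowest array belonged to SHR, and the strains overlapped throughout. The means were 6.56 ± 1.59 in SHR and 6.51 ± 0.76 in WKY (SD, n = 3 each), a difference of 0.05 ± 0.76 (SE; limma adjusted p = 0.993). Without SHR replicate 1 the difference was -0.78, and without SHR replicate 3 it was 0.81. Igf1 thus gave no direction: its SD within strains was higher than that of 99.4% of tested probe sets.

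Igf2, the fetal growth factor that is expressed from the paternal allele only in most tissues, was measured at 3.90, 3.17 and 3.16 in SHR and at 4.08, 3.93 and 3.82 in WKY. SHR replicate 1 lay among the WKY arrays, and the other SHR arrays lay below all of them. The means were 3.41 ± 0.42 and 3.94 ± 0.13 (SD, n = 3 each), with a difference of -0.53 ± 0.23 (SE; unadjusted p = 0.0507, limma adjusted p = 0.902). Without SHR replicate 1 it was -0.77 (limma adjusted p = 0.320). With no detection call in the table, a level this near the array medians is not shown to be above background.

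The signalling receptor Igf1r was nearly flat. It lay at 6.62, 6.74 and 6.91 in SHR and at 6.59, 6.95 and 6.62 in WKY, with the strains fully overlapping. The difference was 0.04 ± 0.17 (SE; limma adjusted p = 0.981), and it changed sign without SHR replicate 3 (-0.04), WKY replicate 1 (-0.02) or WKY replicate 3 (-0.01).

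The clearance receptor Igf2r was measured higher in SHR. Its level was 7.64, 7.89 and 8.11 on the SHR arrays and 7.37, 7.49 and 7.03 on the WKY arrays, so the lowest SHR array lay just above the highest WKY array. The means were 7.88 ± 0.24 and 7.30 ± 0.24 (SD, n = 3 each). The difference of 0.58 ± 0.19 (SE), a measured ratio of 1.50, had an unadjusted p of 0.0176 and did not pass (limma adjusted p = 0.761). It kept its sign whichever array was left out, from 0.45 without WKY replicate 3 to 0.70 without SHR replicate 1.

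Igfbp2, a binding protein that also attaches to integrins and proteoglycans, showed the widest strain difference of the family relative to its error. It lay at 3.19, 3.34 and 3.61 in SHR and at 4.79, 4.67 and 4.48 in WKY. Every SHR array was lower than every WKY array, and the gap between the nearest arrays was wider than the range within either strain (0.41 in SHR, 0.31 in WKY). The means were 3.38 ± 0.21 and 4.65 ± 0.16 (SD, n = 3 each), a difference of -1.27 ± 0.17 (SE) and a measured ratio of 0.415. The unadjusted p was 0.000106 and the limma adjusted p was 0.0848, so the gene did not pass over all probe sets. It passed with array weights (-1.33, limma adjusted p = 0.0147) and with SHR replicate 1 and WKY replicate 3 both left out (-1.26, limma adjusted p = 0.0499). Over all tested probe sets the number passing rose in the same fits as well, from 15 to 65 and to 115. Without both arrays the limma unadjusted p of Igfbp2 was 0.000249, larger than with all arrays. With 1 array left out the Igfbp2 difference ran from -1.38 to -1.18 and did not pass (limma adjusted p from 0.122 to 0.486). The SHR values were near the array medians, so the ratio is between measured levels and does not give the fold in RNA. The means of the white adipocyte, macrophage and endothelial markers were highest on SHR replicate 1, the array with the lowest Igfbp2. Striated muscle markers, 5 tested of 8 listed and 3 of them above the array medians, also separated the strains, with means of 3.17, 3.13 and 3.18 in SHR and 3.81, 3.23 and 3.49 in WKY. The difference of the list means, SHR minus WKY, was -0.97 for erythroid markers (2 tested of 5 listed) and -0.48 for brown adipocyte markers (6 tested of 8 listed). The strains overlapped in the means of both lists. In the brown adipocyte list 4 of the 6 markers were lower in SHR. Dio2 (0.73) and Ppargc1a (0.83) went the other way and were higher on every SHR array. Of the erythroid markers, Slc4a1 lay below every array median. White adipocyte, endothelial, fibroblast and smooth muscle means were also lower in SHR, and macrophage, T cell, B cell and nervous tissue means were not. Apart from a white adipocyte covariate, the part of these lists in the Igfbp2 result was not tested. With a covariate for the mean of white adipocyte markers the difference was -1.32 ± 0.18 (SE; limma adjusted p = 0.107).

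Igfbp5, which binds to extracellular matrix and is the neighbour of Igfbp2, was measured at 7.83, 7.05 and 6.43 in SHR and at 8.42, 7.80 and 7.85 in WKY. SHR replicate 1 lay within the WKY range and the other SHR arrays below it. The means were 7.10 ± 0.70 and 8.02 ± 0.34 (SD, n = 3 each), with a difference of -0.92 ± 0.36 (SE; unadjusted p = 0.0348, limma adjusted p = 0.880). Without SHR replicate 3 it was -0.58 and without SHR replicate 1 it was -1.28. Endothelial markers were among several lists that moved in a similar way. The mean of 6 tested markers of 8 listed was 6.32, 4.97 and 4.50 in SHR and 6.15, 5.67 and 5.43 in WKY. All 6 were above the array medians, and 1 of them, Esam, differed by only 0.02. Fibroblast, white adipocyte, brown adipocyte and erythroid means also fell from SHR replicate 1 to 3 and were lower in SHR. The brown adipocyte mean, like Igfbp5, was highest on WKY replicate 1 (5.92). Apart from a white adipocyte covariate, the part of these lists in the Igfbp5 result was not tested. With a covariate for the mean of white adipocyte markers the difference was -0.65 ± 0.15 (SE; unadjusted p = 0.00333, limma adjusted p = 0.387).

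Igfbp4, an inhibitor of IGF action that PAPP-A cleaves, lay at 6.96, 6.99 and 6.06 in SHR and at 7.19, 7.25 and 7.52 in WKY. The strains did not overlap, but the gap between the nearest arrays was smaller than the range within SHR (0.93), where replicate 3 lay far below the other arrays. The means were 6.67 ± 0.53 and 7.32 ± 0.18 (SD, n = 3 each), with a difference of -0.65 ± 0.27 (SE; unadjusted p = 0.0450, limma adjusted p = 0.889). Without SHR replicate 3 it was -0.34 (limma adjusted p = 0.980). That array also had the lowest mean of the 8 fibroblast markers, 7.96, against 8.63 and 9.24 on the other SHR arrays and 8.80 to 8.99 on the WKY arrays. This was not particular to fibroblast markers. The endothelial (4.50), white adipocyte (4.10), brown adipocyte (3.67), macrophage (3.83), nervous tissue (2.31) and erythroid (1.46) means were lowest there too. The smooth muscle, striated muscle, T cell and B cell means were not. Not every fibroblast marker was lowest there. On that array Col1a1 (9.09) and Col1a2 (10.07) lay within the WKY range, and Lum (8.19) lay above WKY replicate 3 (7.98). With a covariate for the mean of white adipocyte markers the difference was -0.53 ± 0.25 (SE; limma adjusted p = 0.768). The part of the other lists in the Igfbp4 result was not tested.

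Igfbp3, the main carrier of IGFs in blood, varied more between arrays than any other member. It lay at 7.92, 4.55 and 3.61 in SHR and at 5.79, 5.70 and 5.22 in WKY. SHR replicate 1 was the highest of all arrays and the other SHR arrays were below every WKY array. The means were 5.36 ± 2.27 and 5.57 ± 0.31 (SD, n = 3 each), and the difference was -0.21 ± 0.98 (SE; limma adjusted p = 0.983). Without SHR replicate 1, the array high in neuronal markers, it was -1.49 ± 0.32 (SE; unadjusted p = 0.00250, limma adjusted p = 0.288). Without SHR replicate 3 it was 0.67 and without SHR replicate 2 it was 0.20, so the direction rests on single arrays.

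Igfbp6, which prefers IGF2 to IGF1, and Igfbp7 showed no strain difference beyond their error. Igfbp6 lay at 7.77, 7.07 and 6.70 in SHR and at 6.95, 7.07 and 7.63 in WKY, with a difference of -0.04 ± 0.30 (SE; limma adjusted p = 0.990). It changed sign under median centring (0.01) and with array weights (0.04). Igfbp7 was the steadiest member: its values ran from 11.89 to 11.92 in SHR and from 11.74 to 11.92 in WKY, and the difference was 0.04 ± 0.14 (SE; limma adjusted p = 0.971). The sign of the Igfbp7 difference turned without WKY replicate 3 (-0.01). The highest value on any probe set of these arrays was between 11.91 and 12.22, so Igfbp7 lay at the top of the measured range, where a difference may be compressed.

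**Figure D2:**
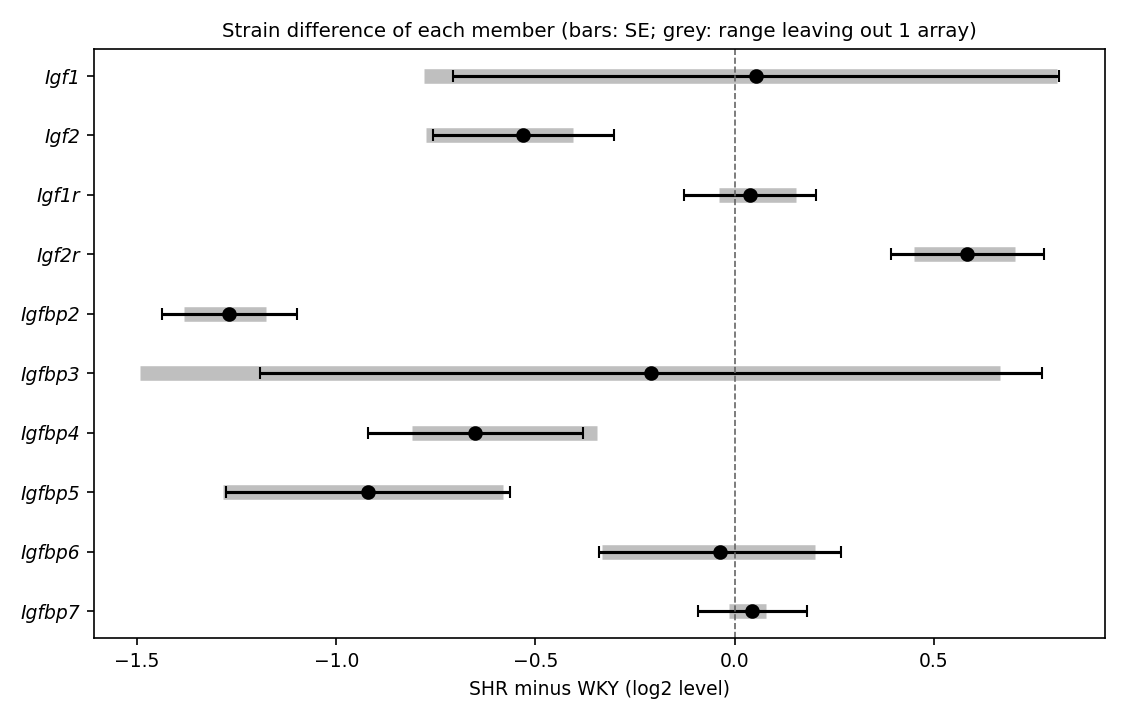
Difference between the strains (SHR minus WKY, log2, horizontal axis) for each member, as points with SE from limma on 6 arrays, and in grey the range when 1 array is left out. Igfbp2, Igfbp4, Igfbp5 and Igf2 stay below 0 and Igf2r stays above 0 over these fits, whereas the ranges of Igf1, Igf1r, Igfbp3, Igfbp6 and Igfbp7 cross 0.

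The variation of Igf1 and Igfbp3 between arrays was shared. Over the 6 arrays the Pearson correlation of Igf1 with Igfbp3 was 0.923, given as a description, since both values of a pair come from the same array. That of Igf2 with Igfbp5 was higher, at 0.946, so shared variation was not particular to Igf1 and Igfbp3. Ghr, the growth hormone receptor that drives Igf1 in liver and fat, lay at 6.84, 5.53 and 5.22 in SHR and 6.63, 5.65 and 5.51 in WKY, and its correlation with Igf1 was 0.887. Among 14821 named protein-coding genes tested, the 3 most like Igf1 by Pearson correlation over the 6 arrays were Il33, an alarmin cytokine (0.994), Dpt, a dermal matrix protein and a member of the fibroblast marker list (0.992), and Col14a1, a fibril-associated collagen (0.992). In all, 109 of these genes reached at least 0.95.

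The marker lists were read on the same arrays, and their means describe marker RNA and not cell numbers. White adipocyte markers had means of 7.93, 5.82 and 4.10 in SHR and 7.56, 6.16 and 6.24 in WKY. Macrophage markers, of which all 8 were tested, had means of 6.13, 4.66 and 3.83 in SHR and 5.48, 4.55 and 4.56 in WKY. Fibroblast markers, also all 8, had means of 9.24, 8.63 and 7.96 in SHR and 8.99, 8.95 and 8.80 in WKY. Like Igf1, Igfbp3 and Ghr, the mean of each of these 3 lists was highest on SHR replicate 1 and lowest on SHR replicate 3. Single markers did not all follow the means. Col1a1 and Col1a2 of the fibroblast list were highest on WKY replicate 3 and lowest on WKY replicate 1. Pi16 and the adipocyte marker Plin1 were highest on WKY replicate 1. Lum and the macrophage markers Lyz2 and Cd14 were lowest on WKY replicate 3. All 8 markers in each of the 3 lists had a mean above every array median. With a covariate for the mean of white adipocyte markers, the SE of the Igf1 difference was 0.33 in place of 0.76 and that of Igfbp3 was 0.44 in place of 0.98. The differences were then 0.61 (limma adjusted p = 0.788) for Igf1 and 0.50 (limma adjusted p = 0.827) for Igfbp3, which turned its sign. The part of the macrophage, fibroblast and nervous tissue markers was not tested.

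**Figure D3:**
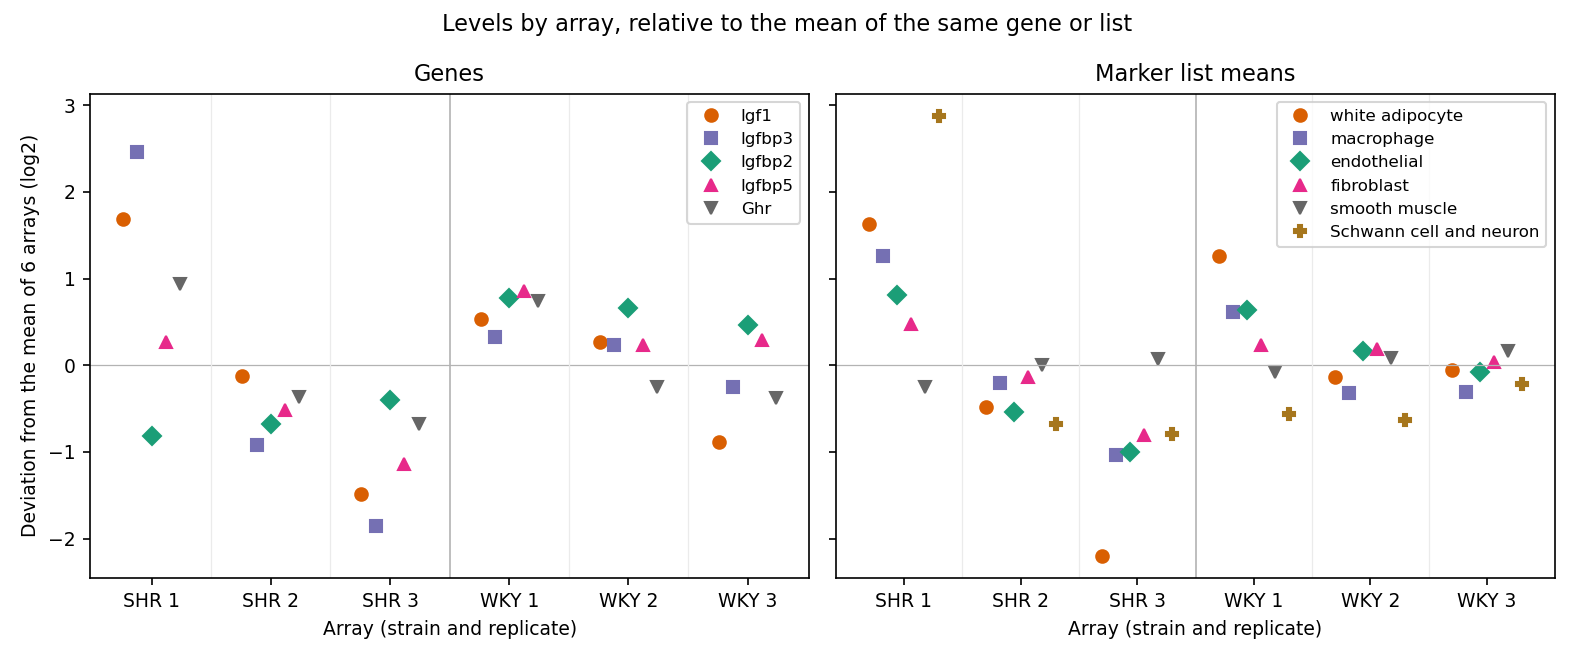
Deviation of each array from the mean of 6 arrays (log2, vertical axis) for 4 members and Ghr (left) and for the means of 6 marker lists (right), by strain and replicate (horizontal axis). Igf1, Igfbp3 and Ghr are highest on SHR replicate 1 and lowest on SHR replicate 3, as are the white adipocyte, macrophage, endothelial and fibroblast means, while Igfbp2 lies below 0 on the 3 SHR arrays and above 0 on the 3 WKY arrays.

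The genes around the family were read from 3 lists. Regulators of IGF availability had 15 tested genes of 20 listed, signalling below IGF1R 33 of 40, and proteins that share the IGFBP domain 13 of 13. Of these 61 genes 0 passed at a limma adjusted p under 0.05 (0.0693% of all tested probe sets). At an unadjusted p under 0.05 there were 5 of 61, where the share of all tested probe sets was 5.55%: 3 were higher in SHR (3.01% of all) and 2 lower (2.54%). The median differences were -0.09, 0.03 and 0.04 for the 3 lists, beside -0.01 over all tested probe sets.

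Among the regulators, Pappa, the protease that cleaves IGFBP4, had the smallest p. It lay at 2.84, 2.49 and 2.76 in SHR and at 2.21, 2.26 and 2.01 in WKY, without overlap, and the difference was 0.54 ± 0.16 (SE; unadjusted p = 0.0113, limma adjusted p = 0.662). The WKY values were below the array medians, so they are not shown to be above background. The related protease Pappa2 differed by 0.28 and the insulin gene Ins2 by -0.58 (limma adjusted p = 0.923 and 0.916). Pappa2 lay above the array median on only 2 arrays, and Ins2 ran from 2.77 to 4.16, near the medians. Neither gene is shown to be above background. Stc2, a stanniocalcin that blocks PAPP-A, differed by -0.09 ± 0.18 (SE). Its levels ran from 2.79 to 3.30, near the medians, and are not shown to be above background. Igfbp1, the insulin-suppressed binding protein of liver, had strain means of 1.30 and 1.11, and Igfals, the acid-labile subunit of the circulating complex, had means of 1.36 in SHR and 1.50 in WKY. Both genes lay below every array median. Insr, the insulin receptor, had means of 5.07 ± 0.15 in SHR and 5.32 ± 0.46 in WKY (SD, n = 3 each).

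Signalling genes kept close to 0, with differences from -0.29 to 0.36. Ptpn1, a phosphatase that acts on insulin and IGF receptors, was the 1 gene of the list with an unadjusted p under 0.05 (0.0480). It lay at 4.91, 4.98 and 5.08 in SHR and at 4.71, 4.49 and 4.74 in WKY (difference 0.34, limma adjusted p = 0.898). The adaptor Shc1 differed by 0.36 and the GTPase Hras by 0.30, each with a limma adjusted p of 0.923. Irs1, the docking protein of IGF1R and the insulin receptor, differed by -0.16 ± 0.21 (SE; limma adjusted p = 0.936).

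The relatives with an IGFBP domain spread wider, from -1.44 to 2.01. Esm1, an endothelial proteoglycan, lay at 5.61, 4.62 and 5.99 in SHR and at 3.20, 3.65 and 3.35 in WKY. Every SHR array was higher than every WKY array, and the difference of 2.01 ± 0.34 (SE) did not pass (unadjusted p = 0.000495, limma adjusted p = 0.208). Ccn1, an immediate early matricellular protein, lay at 7.01, 7.57 and 8.58 in SHR and at 8.91, 9.53 and 9.02 in WKY. It was lower on every SHR array, with a difference of -1.44 ± 0.39 (SE; unadjusted p = 0.00693, limma adjusted p = 0.577). The protease gene Htra4 differed by -0.45 (unadjusted p = 0.0457, limma adjusted p = 0.890). It lay above the array median on only 3 arrays, so it is not shown to be above background.

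**Figure D4:**
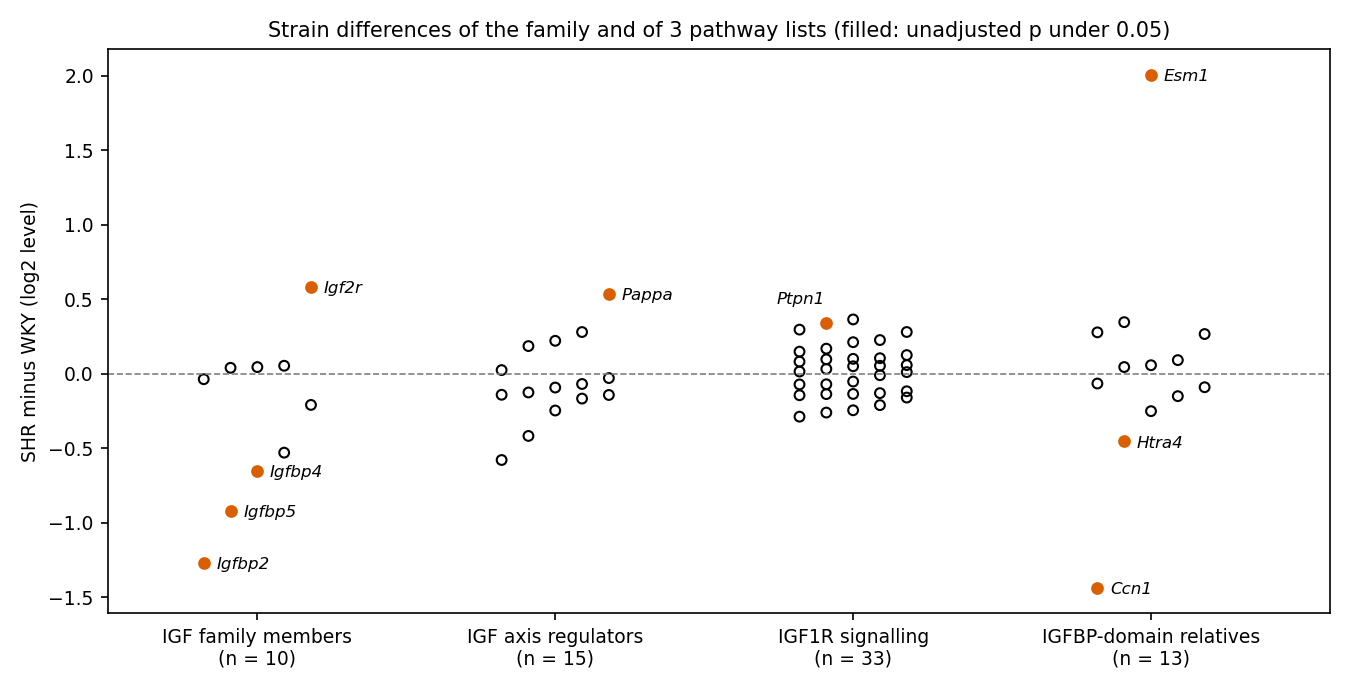
Difference between the strains (SHR minus WKY, log2, vertical axis) for the 10 members and for the tested genes of the 3 pathway lists, with 1 point per gene. Filled, named points have an unadjusted p under 0.05, and none passed the adjusted threshold. Signalling genes lie between -0.29 and 0.36, and Esm1 (2.01) and Ccn1 (-1.44) lie farthest from 0.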

How the data were processed

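Per the submitters' processing notes, the authors ran RMA within Affymetrix Expression Console (version 1.2.1), and the deposited values are log2 levels per probe set. That method adjusts for background, equalizes the array distributions and summarizes probes. The log2 scale follows from RMA and the values, and no detection call is present. The genome build is not given in the sources used here. For arrays, their number (3 per strain) limits precision. Strain and replicate came from the titles.

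Probe sets with 1 gene symbol (18511) were named, and 18394 matched RefSeq GRCr8 by Entrez identifier. The annotation gives H19 only with Mir675, so it was not named. Probe sets at or above the 25th percentile of the mean (log2 1.17) were analysed in R 4.3.3 using limma 3.58.1 (functions lmFit and eBayes), strain as the only term, two-sided, Benjamini-Hochberg adjusted over 21659. The fit was tested on simulated data with independent errors and equal variance on all arrays. That test does not cover arrays of unequal quality or variation shared between genes. A gene with several probe sets was represented by the highest mean.

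Members, gene lists and alternatives were chosen with earlier results of these data known. Named beside the members were the 3 list genes with the smallest unadjusted p in each list, and Igfbp1, Igfals, Insr, Ghr, Pappa, Stc2 and Irs1, and the 3 coding genes most correlated with Igf1. The alternatives were a replicate block, other filters, a further quantile normalization, median centring, trend with robust prior, array weights, an adipocyte covariate, left-out arrays and other thresholds. Replicate numbers were not taken to pair the arrays in the main fit.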

Additional observations from a re-analysis of the deposited data

How the results depend on the processing

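Igfbp2, Igfbp4, Igfbp5, Igf2 and Igf2r kept their direction in all 15 alternative fits. The replicate block, the other filters and the trend with robust prior leave a difference as it is and change only its error. Only the remaining fits could have turned a sign. Members passing rose from 0 to 1 (Igfbp2) with array weights, without both SHR replicate 1 and WKY replicate 3, and at an adjusted p under 0.10, and to 4 at an unadjusted p under 0.05. With 1 array left out 0 members and 0 pathway genes passed. Pathway genes passing were 0 in each other fit and 5 at an unadjusted p under 0.05. Of all probe sets 15 passed. The count was 2 to 5 with 1 array left out, 3 with the replicate block, 65 with array weights, 115 without both arrays, 30 at an adjusted p under 0.10 and 1202 at an unadjusted p under 0.05.

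Signs turned for members that did not pass. Igf1 was -0.0073 after a further quantile normalization, -0.50 with array weights and -1.21 without both arrays, and ranged from -1.21 to 0.81 over the fits with arrays left out. Igf1r was -0.052 after quantile normalization and -0.022 with the adipocyte covariate, and ranged from -0.038 to 0.15. Igfbp3 was 0.50 with the covariate and ranged from -1.67 to 0.67. Igfbp6 was 0.011 under median centring, 0.040 with array weights and 0.10 with the covariate, and ranged from -0.33 to 0.20. Igfbp7 was -0.0077 without both arrays and ranged from -0.015 to 0.078. The cause was not tested.

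Same-numbered arrays correlated at 0.354, -0.0786 and 0.228 in their deviations from strain means, and different-numbered arrays at -0.321 to 0.166. The same-numbered pairs of replicate 1 and of replicate 3 had the highest values and that of replicate 2 did not. These values do not settle whether the numbers pair the arrays, and the main fit used no pairing. Under the block Igfbp2 was -1.27 (limma adjusted p = 0.193). Each member has 1 probe set, so the mean over probe sets could not differ, and strain variants in the probed sequence were not tested.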
